A study of Homo sapiens with 6 samples.

Results

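The AP-1 family immediate early genes examined here are JUN, JUNB, JUND, FOS, FOSB, FOSL1, FOSL2 and ATF3. They were taken by name, and a peak was assigned to a gene when any base of it lay within 2 kb of the start site given for that gene on the hg19 build. These windows held 14 of the 32037 regions in the union of 6 ATAC-seq peak lists, and between 13 and 26 of the 18273 to 33765 entries of a list. In ATAC-seq a transposase cuts open chromatin and tags the cut DNA for sequencing. The cells were CCRF-CEM, an established human T lymphoblast leukaemia line. They were either SLFN11 gene knockout cells, present as 1 knockout line, or the wild-type parent cells, which express SLFN11. SLFN11 protein blocks replication in cells under DNA damage and makes them sensitive to such drugs. Each genotype received DMSO, the solvent, or camptothecin at 100 nM, a poison of topoisomerase I, for 2 h or 4 h. Each combination is 1 library. Differences between libraries therefore have no replicate check, no p-value is given, and an effect of the genotype cannot be told apart from one of the single knockout line.

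AP-1 is a dimeric transcription factor built from a JUN protein and a JUN, FOS or ATF partner, joined through leucine zippers. Most of these genes are immediate early genes, which stress kinases and growth signals switch on through transcription factors already present in the cell. In T cells AP-1 acts with NFAT downstream of the antigen receptor. JUN activates its own promoter, and cAMP response elements bound by CREB and ATF proteins are a known feature of several of them.

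The promoter sequences are shown because the windows described here are centred on the start sites. RefSeq promoter sequences (GRCh38.p14) could be matched to 6 of the 8 genes with 1 entry each. The table used holds 2 starts for ATF3, which were not placed on hg19, and FOSL1 has no entry. The 250 bases before each start are printed 5′ to 3′, and capitals mark the core of a cAMP response element (TGACG, either strand, including the full palindrome TGACGTCA that contains it), the JUN-type AP-1 site TGACATCA, CCAAT and TATAA.

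JUN, chr1:58784048-58784297, minus strand: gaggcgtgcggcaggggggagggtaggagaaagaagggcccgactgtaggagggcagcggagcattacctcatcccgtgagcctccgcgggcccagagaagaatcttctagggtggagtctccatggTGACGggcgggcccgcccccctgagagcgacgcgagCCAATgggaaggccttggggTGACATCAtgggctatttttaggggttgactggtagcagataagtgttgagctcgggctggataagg

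JUNB, chr19:12791236-12791485, plus strand: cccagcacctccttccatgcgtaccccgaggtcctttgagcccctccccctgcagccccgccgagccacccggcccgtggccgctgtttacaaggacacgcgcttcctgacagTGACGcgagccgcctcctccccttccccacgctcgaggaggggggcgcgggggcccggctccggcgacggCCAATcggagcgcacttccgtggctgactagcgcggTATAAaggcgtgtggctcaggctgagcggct

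JUND, chr19:18281623-18281872, minus strand: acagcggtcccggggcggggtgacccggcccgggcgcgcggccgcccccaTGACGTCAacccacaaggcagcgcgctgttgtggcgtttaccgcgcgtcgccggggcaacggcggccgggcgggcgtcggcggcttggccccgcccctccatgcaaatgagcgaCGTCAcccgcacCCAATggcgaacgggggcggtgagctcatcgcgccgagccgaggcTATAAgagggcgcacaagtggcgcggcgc

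FOS, chr14:75278578-75278827, plus strand: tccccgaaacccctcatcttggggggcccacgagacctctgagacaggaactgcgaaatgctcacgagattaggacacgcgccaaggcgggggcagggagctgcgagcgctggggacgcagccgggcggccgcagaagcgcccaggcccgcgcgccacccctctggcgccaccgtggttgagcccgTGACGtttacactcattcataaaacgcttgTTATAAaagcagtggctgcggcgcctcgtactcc

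FOSB, chr19:45467746-45467995, plus strand: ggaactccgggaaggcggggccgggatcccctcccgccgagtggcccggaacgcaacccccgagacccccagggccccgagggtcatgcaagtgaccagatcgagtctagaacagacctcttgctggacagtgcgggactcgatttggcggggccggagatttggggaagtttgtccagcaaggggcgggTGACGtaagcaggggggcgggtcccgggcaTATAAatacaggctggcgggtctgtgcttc

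FOSL2, chr2:28392608-28392857, plus strand: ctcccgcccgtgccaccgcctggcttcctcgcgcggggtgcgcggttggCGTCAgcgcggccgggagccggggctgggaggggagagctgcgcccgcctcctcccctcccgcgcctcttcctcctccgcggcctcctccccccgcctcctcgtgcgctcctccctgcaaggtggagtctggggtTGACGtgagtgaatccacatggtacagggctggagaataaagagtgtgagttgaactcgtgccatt

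A TGACG core was present in all 6 sequences, against 21.2% of the 35116 RefSeq promoters searched over the same length. The 6 sequences held 62.0% to 74.8% G and C, against a mean of 57.19% over all promoters, so these shares are not matched for base composition. The palindrome TGACGTCA was found in JUND, at positions -200 to -193, and in 1.65% of all promoters. TGACATCA was found in JUN, at positions -67 to -60, and in 2.37% of all promoters. TATAA lay between positions -34 and -25 from the start in JUNB, JUND, FOS and FOSB, and anywhere in the window in 18.9% of all promoters. CCAAT occurred in JUN, JUNB and JUND, and in 32.0% of all promoters. The site TGANTCA was in none of the 6 windows and in 6.57% of all promoters. All motifs were searched on both strands, and a match describes letters, not a bound site. Measured from the hg19 start sites, which were not aligned with the RefSeq starts, peaks covered all 250 upstream bases of JUN, JUND, FOS and FOSL2 in every library. For FOSB they covered between 35 bases (knockout, camptothecin 4 h) and 250 bases (both parent camptothecin libraries). At JUNB the upstream stretch was covered over 0, 188 and 0 bases in knockout cells given DMSO, 2 h and 4 h of camptothecin, and over 42, 193 and 198 bases in parent cells.

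Libraries are placed by the library code in their peak identifiers, which the sample titles also carry. In 0 of 6 cases does the code match the title of the sample under which a list is recorded. By the recorded samples, the list called DMSO here is the 4 h library of its genotype, the list called 2 h is DMSO and the list called 4 h is 2 h. Which placement is right cannot be told apart from the files. Values under the recorded samples are given for genes past 1.5-fold by the codes whose direction turns, and for the main counts. Smaller ratios that change sign are not all given. Reads at a summit cannot tell open sites in more cells apart from more cuts per cell. The lists have no read totals, so libraries were put on 1 scale through their peaks. The number of reads over each summit was recovered from the authors' fold enrichment and p. The 11070 regions called in all 6 libraries had median summits of 26, 30 and 24 reads in knockout cells given DMSO, 2 h and 4 h of camptothecin, and of 20, 49 and 59 reads in parent cells. Ratios between libraries were therefore scaled to the median ratio over these 11070 regions. This scaling takes out any library-wide difference in summit reads, whether from depth or from signal over background. The lowest background of a list differed less than these medians, between 1.22 and 1.37 reads. What made the medians differ was not tested. A gene is said to have risen or fallen when its scaled ratio passed 1.5-fold. Intervals are 95% intervals (Poisson for reads, binomial for ratios) and cover counting error only. Markers of T cells and SLFN11 itself were not located, because no hg19 gene annotation was used here.

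JUN, JUND, FOS and FOSL2 carried a peak over their start site in 6 of 6 libraries, ATF3 in 5, JUNB in 4, FOSL1 in 3 and FOSB in 2. With any peak within 2 kb counted, FOSB and ATF3 were also called in 6 of 6 libraries. Each gene's covered length was longest in a parent camptothecin library. JUNB, a JUN protein whose activity differs from that of JUN, had no peak in knockout DMSO. In knockout cells at 4 h its only peak began 1957 bases beyond the start site, so JUNB had no start-site peak there either. FOSL1, which encodes the FOS-related protein FRA-1, had no peak in knockout DMSO or in parent DMSO and was called in all 4 camptothecin libraries. The number of genes with a peak was thus 6, 8 and 8 in knockout cells given DMSO, 2 h and 4 h of camptothecin, and 7, 8 and 8 in parent cells. In the same order, a peak was present at 58.9%, 63.8% and 58.3% of all union regions in knockout libraries and at 43.3%, 72.9% and 66.8% in parent libraries. Among the 2769 union regions of at least 1 kb, these shares were between 92.2% and 99.9%, so a call at most AP-1 start sites is near the background of wide regions. The 2 knockout gains at each time compare with 19.5% (2 h) and 16.3% (4 h) of regions held by either list that were called under camptothecin and not under DMSO. The JUNB gain at 4 h is the separate peak at the window edge, and the knockout counts depend on the window. With a 1 kb window 7 genes had a peak in knockout cells at 4 h. With a 5 kb window 7 genes had a peak in knockout DMSO. For the parent gain of FOSL1 the corresponding shares were 43.0% and 39.4%. By the codes, 0 genes lost a peak under camptothecin, whereas 12.8% and 17.2% of such regions did in knockout cells at 2 h and 4 h, and 4.13% and 6.63% in parent cells. The numbers of genes with a peak by the recorded samples were 8, 8 and 6 in knockout cells and 8, 8 and 7 in parent cells. JUNB and FOSL1 in knockout cells and FOSL1 in parent cells then lost their peak within 2 kb at 4 h. By the codes, all 8 genes had a peak in both the 4 h and the 2 h list of each genotype, while 12.6% and 20.2% of regions were in the 4 h list alone or the 2 h list alone in knockout cells, and 11.1% and 18.5% in parent cells.

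**Figure D1:**
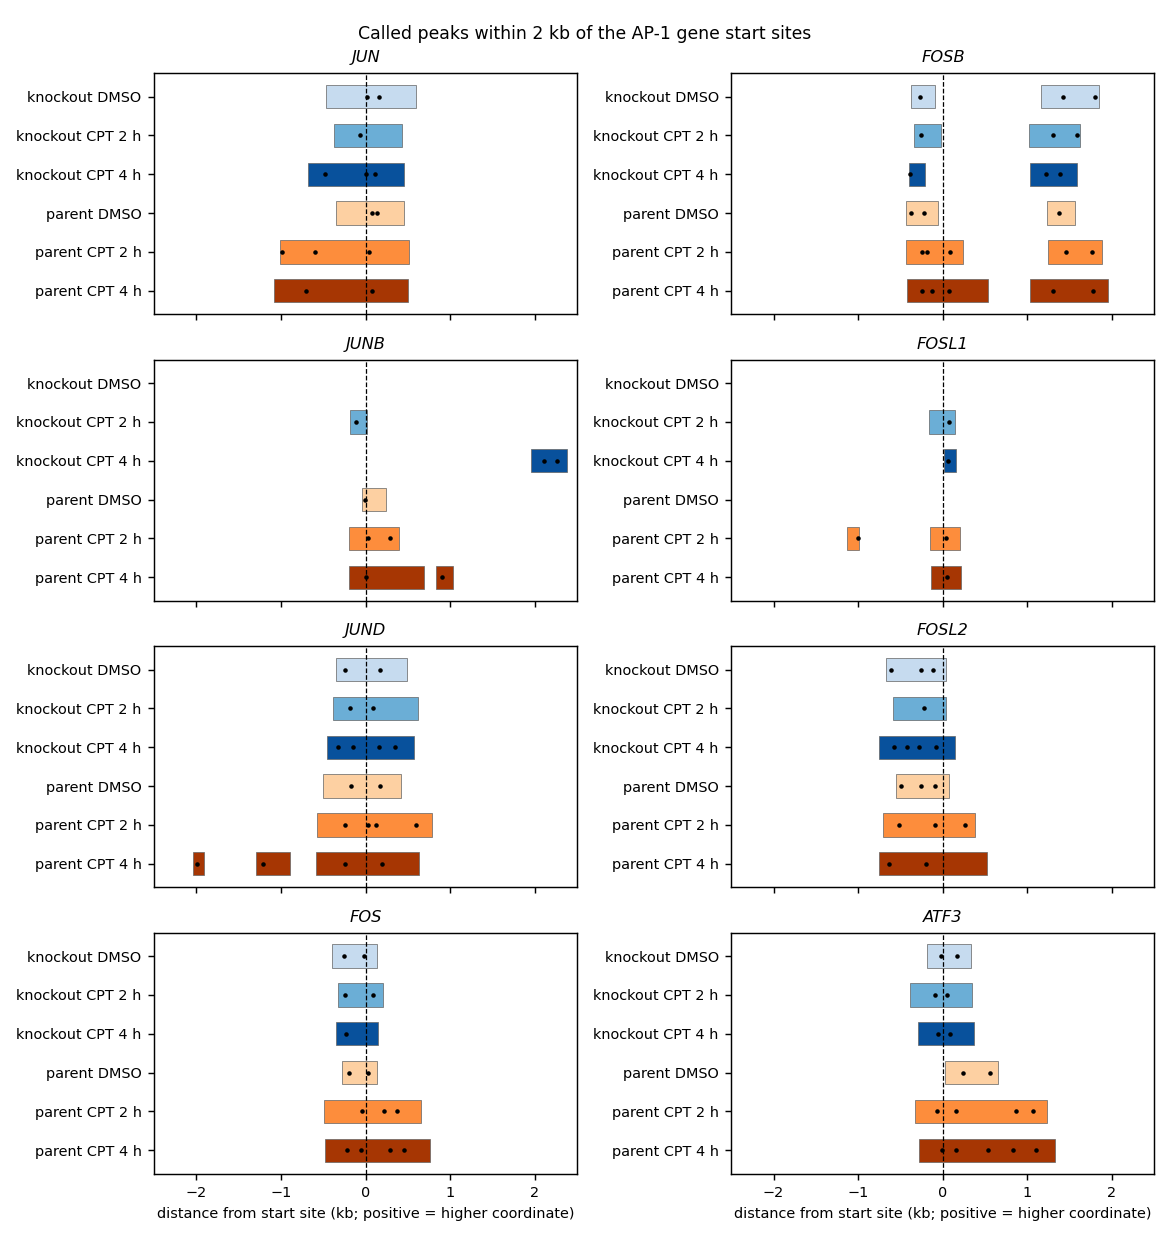
Peaks called within 2 kb of each AP-1 start site, by distance from the start site in kb (positive distances are at higher coordinates), with 1 row per library; bars are merged peaks and dots are summits. The parent camptothecin rows (CPT) hold the widest bars at JUN, FOS, FOSL2 and ATF3, JUNB is empty in the knockout DMSO row and FOSL1 in both DMSO rows.

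JUN, the partner common to most AP-1 dimers, lies on chromosome 1 with its start site at 59249785 on the minus strand. Its highest summit had 48, 55 and 57 reads in knockout cells given DMSO, 2 h and 4 h of camptothecin, and 29, 111 and 169 reads in parent cells. The parent camptothecin libraries stood above all others, with a 4 h interval of 144 to 196 reads against 19.4 to 41.6 reads in parent DMSO. Summits of other regions were also higher in these libraries. Scaled to the shared regions, JUN was 2.04-fold higher in parent cells at 4 h than under DMSO (log2 ratio 1.03, interval 0.45 to 1.65) and 1.61-fold higher at 2 h (0.69, 0.09 to 1.33). In knockout cells the scaled log2 ratio was 0.32 at 4 h, with an interval of -0.26 to 0.90. The parent ratio by the recorded samples was 0.39 at 2 h and -0.69 at 4 h. The peak spanned 59248696 to 59250282 in parent cells at 4 h (1587 bases), against 59249437 to 59250234 under DMSO (798 bases). The added length lay on the low-coordinate side, which for JUN is the transcribed side, and carried a further summit at -701 bases in genome coordinates from the start, with 64 reads.

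JUNB lies on chromosome 19, on the plus strand with its start site at 12902310. Its highest summit had 20 reads in knockout cells at 2 h, and 16, 65 and 97 reads in parent cells given DMSO, 2 h and 4 h. The 21 reads found in knockout cells at 4 h belong to the separate peak at 12904267 to 12904684, and knockout DMSO had no entry in the window. At the start site, unscaled reads were thus highest in camptothecin-treated parent cells, where summits of other regions were also higher. Scaled log2 ratios to DMSO in parent cells were 0.77 at 2 h, with an interval of -0.03 to 1.66, and 1.09 at 4 h, with an interval of 0.31 to 1.95. They were 0.37 at 2 h and -0.77 at 4 h by the recorded samples. The parent DMSO value of 16 reads is low for that list, at the 31.6th percentile of the shared regions. A second parent peak of 195 bases, 833 to 1027 bases downstream, was called at 4 h and in no other library. It was weak, with a fold enrichment of 1.98 and a -log10 q of 2.35.

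JUND, the family member that most cells express without stimulation, starts at 18392466 on chromosome 19, on the minus strand. It had 70, 79 and 58 reads in knockout cells given DMSO, 2 h and 4 h, and 40, 104 and 173 reads in parent cells. Among the shared regions of its own list it stood at the 92nd percentile or higher in each of the 6 libraries, between 92.3 and 98.2. The scaled log2 ratio in parent cells was 0.13 at 2 h (-0.41 to 0.69) and 0.60 at 4 h (0.09 to 1.13). The 4 h value is 1.51-fold, at the edge of the threshold. The recorded samples put JUND in parent cells at 0.52 at 2 h and -0.13 at 4 h. In knockout cells the ratio was -0.20 at 4 h (-0.73 to 0.32). Parent cells at 4 h also had 2 narrow peaks of 402 and 133 bases on the transcribed side, with 67 and 62 reads, that no other list held. These peaks were weak, with fold enrichments of 1.96 and 1.82 over local backgrounds of 33.7 and 33.5 reads. Their -log10 q was 4.26 and 2.93.

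FOS, the prototype immediate early gene, starts at 75745481 on chromosome 14, on the plus strand. Its highest summit had 35, 33 and 30 reads in knockout cells given DMSO, 2 h and 4 h, and 15, 71 and 100 reads in parent cells. Knockout values did not differ beyond their intervals, whereas parent cells at 2 h and 4 h were both above all other libraries. FOS had the highest scaled ratios of the family in parent cells, 1.99-fold at 2 h (log2 0.99, 0.18 to 1.91) and 2.33-fold at 4 h (1.22, 0.43 to 2.11). In knockout cells the log2 ratios were -0.28 at 2 h (-1.01 to 0.45) and -0.16 at 4 h (-0.91 to 0.59). FOS by the recorded samples was at 0.13 at 2 h and 0.28 at 4 h in knockout cells, and at 0.28 and -0.99 in parent cells. Among shared regions FOS stood at the 74.6th, 59.6th and 67.6th percentile of knockout lists and at the 26.1st, 78.5th and 83.4th percentile of parent lists. The parent peak at 4 h reached from -478 to 758 bases relative to the start (75745003 to 75746239), against -281 to 135 bases under DMSO. Its summits 282 and 455 bases downstream lay in sequence that no DMSO peak or knockout peak covered.

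FOSB, a FOS paralogue induced by similar signals, starts at 45971253 on chromosome 19, on the plus strand, and had a pair of peaks in every library. The peak at the start had 17, 29 and 17 reads in knockout cells given DMSO, 2 h and 4 h, and 18, 45 and 75 reads in parent cells. The peak 1.0 to 2.0 kb downstream had 34, 27 and 30 reads in knockout cells, and 22, 49 and 60 reads in parent cells. In both peaks parent cells under camptothecin were highest. The scaled ratio of the higher summit did not pass 1.5-fold in any comparison. Its log2 value in parent cells was -0.09 at 2 h (-0.85 to 0.70) and 0.25 at 4 h (-0.45 to 1.01). The peak at the start, taken alone, passed it once: at 4 h it was lower in knockout than in parent cells, with a scaled log2 ratio of -0.91. Its ratio to DMSO was 0.58 in knockout cells at 2 h, and 0.07 and 0.54 in parent cells at 2 h and 4 h.

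FOSL1 was the weakest member. On chromosome 11, over the start site at 65667997, it had 17 and 13 reads in knockout cells at 2 h and 4 h and 31 reads in parent cells at each time. Within the shared regions these values stood at the 6.19th to 21.9th percentile. With no peak under DMSO no ratio can be given. FOSL2, which encodes FRA-2, starts at 28615779 on chromosome 2, on the plus strand. Its highest summit had 41, 33 and 27 reads in knockout cells given DMSO, 2 h and 4 h, and 34, 84 and 79 reads in parent cells. After scaling the parent log2 ratios were 0.06 at 2 h (-0.53 to 0.68) and -0.30 at 4 h (-0.90 to 0.33), so FOSL2 did not move with JUN and FOS. Its peak was nevertheless wider, with 1274 bases in parent cells at 4 h against 629 under DMSO.

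ATF3, a stress-induced partner that can repress its targets, was examined at the start site 212782000 on chromosome 1, which is not its only annotated start. Its highest summit had 24, 43 and 28 reads in knockout cells given DMSO, 2 h and 4 h, and 17, 80 and 111 reads in parent cells. Scaled to the shared regions it was 1.98-fold higher in parent cells at 2 h (log2 0.99, 0.22 to 1.84) and 2.29-fold at 4 h (1.19, 0.45 to 2.02). ATF3 also rose in knockout cells at 2 h, by 1.57-fold, although the interval of the log2 ratio ran from -0.10 to 1.43. At 4 h the knockout log2 ratio was 0.29 (-0.55 to 1.14). ATF3 by the recorded samples was at -0.36 at 2 h and -0.65 at 4 h in knockout cells, where it fell, and at 0.26 and -0.99 in parent cells. In parent cells at 4 h the peak covered 212781717 to 212783327 (1611 bases) with 5 summits, against 212782021 to 212782646 (626 bases) with 2 summits under DMSO. Knockout peaks were 510, 733 and 659 bases long and ended no more than 361 bases past the start site.

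**Figure D2:**
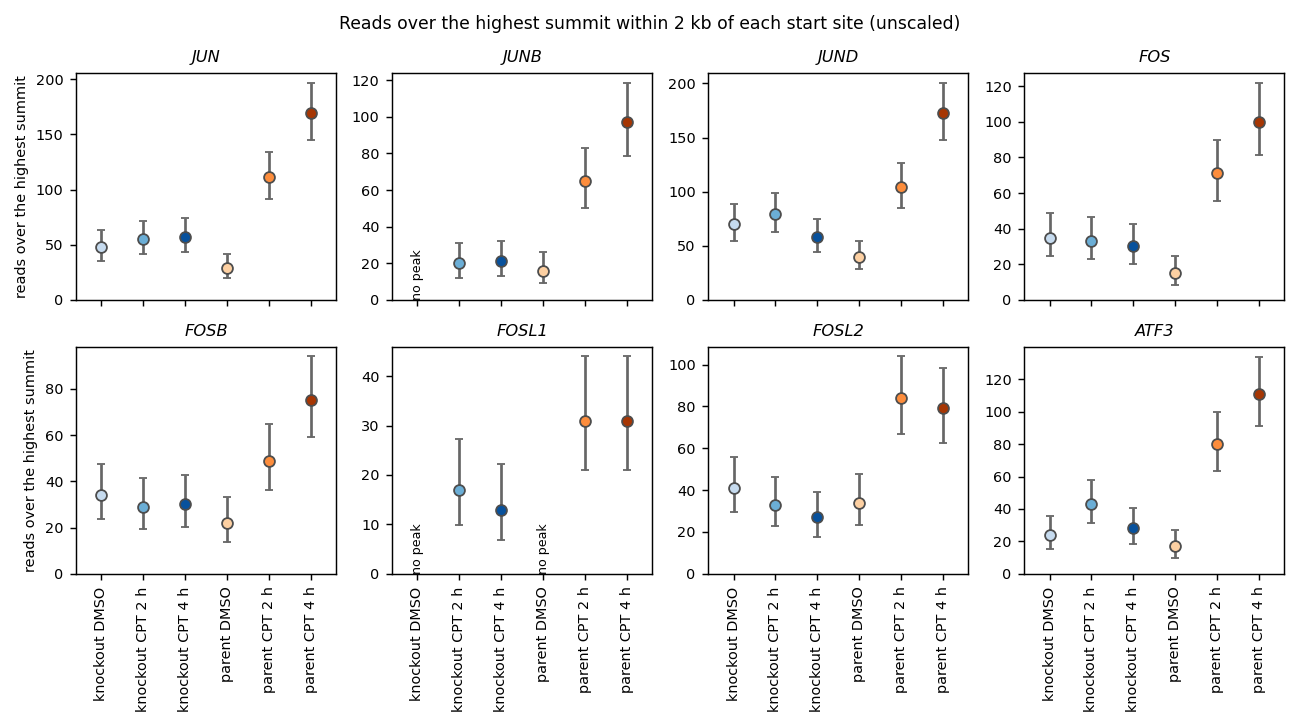
Reads over the highest summit within 2 kb of each start site, unscaled, for each library; bars are 95% Poisson intervals and cover counting error only. Parent camptothecin libraries are highest at all 8 genes, including JUN with 111 and 169 reads and FOS with 71 and 100 reads, and library-wide medians differ too (20, 49 and 59 reads in parent cells).

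JUN, JUNB, FOS and ATF3 rose in parent cells at both times by the codes. At 4 h, 5 of the 7 genes with a peak in both libraries rose (JUN, JUNB, JUND, FOS and ATF3) and 0 fell, whereas 12.3% of the 11070 shared regions rose and 25.3% fell. At 2 h, 4 of 7 rose (JUN, JUNB, FOS and ATF3) and 0 fell, against 7.84% and 16.1% of shared regions. The median scaled log2 ratio of the genes was 1.03 at 4 h and 0.69 at 2 h, with a median of 0 over all shared regions by construction. Among the 2505 shared regions of at least 1 kb, a set added once the data had been seen, 14.8% rose at 4 h and 7.54% at 2 h. Both times are set against the same DMSO library. Between 4 h and 2 h, 0 of 8 genes rose or fell, against 5.49% and 12.0% of shared regions. The parent DMSO library stands apart from the other 5, with the fewest entries and the lowest median summit. Each parent rise rests on it, and the part of this library in the result was not tested. By the recorded samples it is the 4 h library. Then 0 of 7 genes rose and 4 fell at 4 h (JUN -0.69, JUNB -0.77, FOS -0.99 and ATF3 -0.99 on the log2 scale, with JUND at -0.13), and 0 rose or fell at 2 h.

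In knockout cells few genes moved. At 2 h, 1 of 6 genes rose (ATF3) and 0 fell, near the 4.94% and 5.37% of shared regions. At 4 h, 0 of 6 rose and 0 fell, against 5.77% and 5.89% of shared regions, with log2 ratios between -0.54 (FOSL2) and 0.32 (JUN). Between 4 h and 2 h, 0 of 8 rose or fell, against 6.11% and 5.41%. Median log2 ratios of the genes were -0.15 at 2 h and -0.13 at 4 h. With the recorded samples, 0 genes rose at either time and 1 fell at 4 h (ATF3, -0.65).

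**Figure D3:**
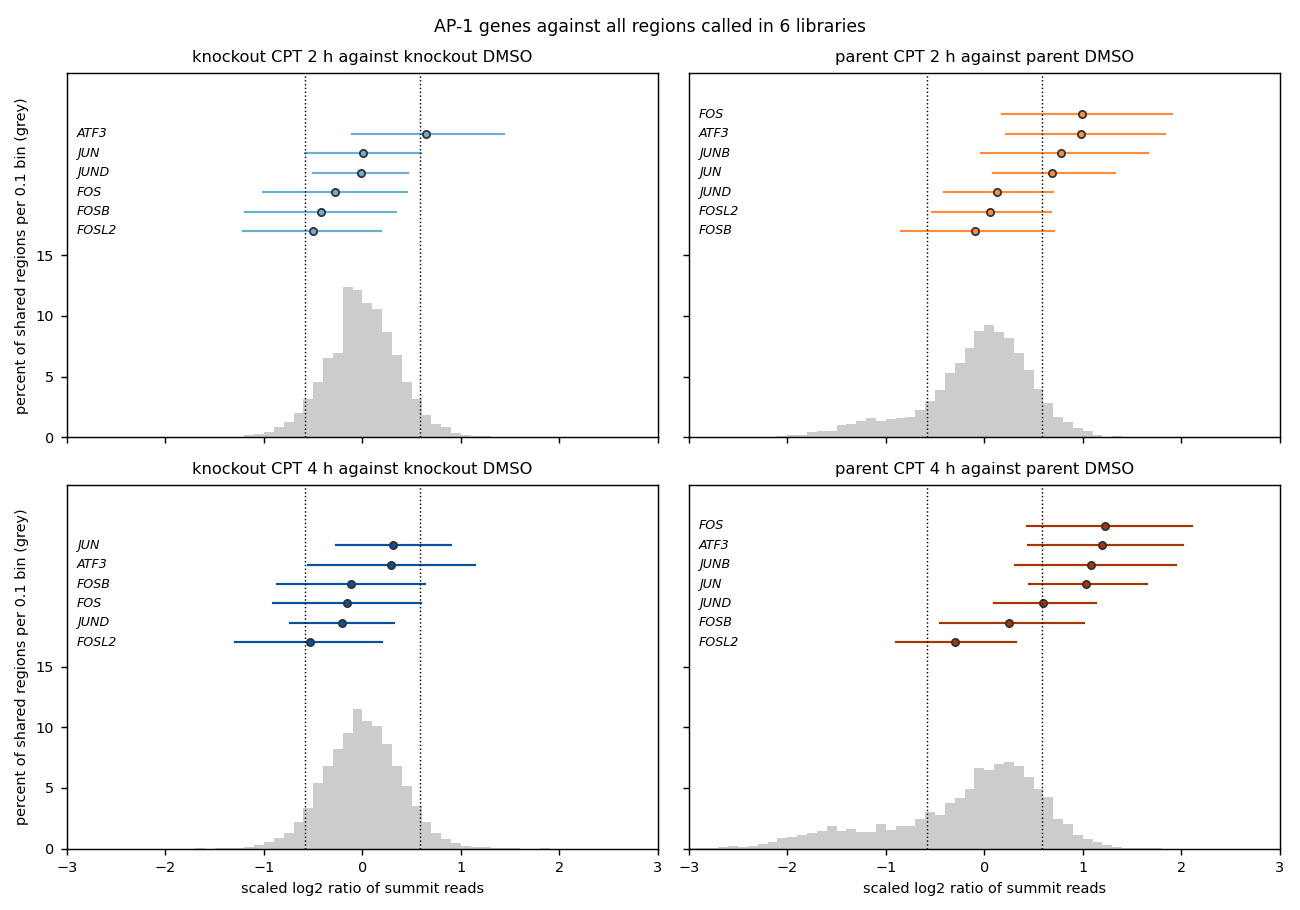
Scaled log2 ratio of summit reads under camptothecin over DMSO for AP-1 genes with a peak in both libraries (points, with 95% binomial intervals as lines), above the distribution over the 11070 shared regions (grey, percent per bin); dotted lines mark 1.5-fold. FOS, ATF3, JUNB and JUN lie right of the upper line in both parent panels, and only ATF3 at 2 h does so in the knockout panels.

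The treatment ratios of the genotypes were also set against each other, as the knockout log2 ratio minus the parent log2 ratio. At 4 h this difference was below 0 for all 6 genes that have both ratios, between -1.38 (FOS) and -0.24 (FOSL2), with a median of -0.76. It passed 1.5-fold downwards for 4 of the 6 (JUN, JUND, FOS and ATF3), against 18.8% of shared regions, while 27.6% of regions passed upwards. At 2 h it ran from -1.27 (FOS) to -0.15 (JUND), with a median of -0.45, and 2 of 6 genes passed (JUN and FOS), against 12.7% of shared regions downwards and 19.6% upwards. JUNB and FOSL1 have no knockout ratio. The 4 h differences turned by the recorded samples: all 6 were above 0, between 0.15 (JUND) and 1.27 (FOS), with a median of 0.45. These are the 2 h differences by the codes with the sign reversed, because the same lists are compared the other way round. By the recorded samples 2 of 6 thus passed upwards at 4 h (JUN and FOS) and 0 downwards, against 12.7% and 19.6% of shared regions. At 2 h 8 genes had a difference, with a median of -0.09, and 2 passed downwards (JUND at -0.71 and ATF3 at -0.62) and 0 upwards, against 14.8% and 19.8%. With 1 library per group these differences carry no test.

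Set directly against parent cells at the same treatment, knockout cells had fewer unscaled reads at all 8 genes at 2 h and 4 h. They had more at the 6 genes called in both genotypes under DMSO. These directions are also those of the median over the shared regions. Under DMSO, 2 h and 4 h that median was 26, 30 and 24 reads in knockout cells and 20, 49 and 59 in parent cells. Under DMSO, 1 of 6 genes was higher in knockout cells after scaling (FOS, 35 reads against 15 in parent cells, log2 ratio 0.87, -0.04 to 1.85) and 0 were lower, against 6.87% and 6.84% of shared regions. JUNB had a peak in parent DMSO and none in knockout DMSO, as did 7.21% of regions held by either list, while 0 genes and 31.7% of regions had the reverse. At 2 h, 2 of 8 genes were lower in knockout cells (JUNB at -1.03 and FOSL2 at -0.68) and 0 higher, against 6.45% and 12.8% of shared regions. At 4 h, 2 of 8 were lower and 0 higher, against 10.8% and 25.0%. These were ATF3 (28 reads in knockout cells, 111 in parent cells, log2 -0.75, -1.41 to -0.15) and JUNB (-0.97), whose knockout value comes from the separate peak beyond the start site. All 8 log2 ratios at 4 h were below 0, some of them barely (FOSL1 at -0.02 and FOSB at -0.09). The median over all shared regions is 0 by construction, and the share of regions below 0 was not counted. All 8 genes had a peak in both genotypes at 2 h and 4 h, whereas 11.9% and 14.4% of regions held by either list were called in knockout cells alone, and 22.8% and 25.3% in parent cells alone. By the recorded samples the 4 h values belong to 2 h, the 2 h values to DMSO and the DMSO values to 4 h. Then JUNB and FOSL2 were lower under DMSO, with FOS at -0.44, and FOS was higher at 4 h (0.87), with ATF3 at 0.15.

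The length covered by peaks in the 4 kb window followed the reads. Over the 8 genes it summed to 4610, 5140 and 5143 bases in knockout cells given DMSO, 2 h and 4 h, and to 4361, 9100 and 10732 bases in parent cells. All 7 genes called in both parent libraries were at least 1.5 times longer at 4 h than under DMSO, from 1.86 times (JUND) to 3.89 times (JUNB), as were 52.9% of shared regions, and 1.84% were that much shorter. At 2 h, 6 of 7 were (all but JUND at 1.47 times), as were 53.5% of shared regions, with 0.804% shorter. Their median ratio at 4 h was 2.57, against 1.54 over all shared regions and 1.59 over those of at least 1 kb. In knockout cells 0 of 6 genes lengthened or shortened by 1.5 times at 2 h, against 12.0% and 6.03% of regions, and 0 of 6 at 4 h, against 7.43% and 13.1%. Between 4 h and 2 h, JUNB and FOSL1 shortened by 1.5 times in knockout cells and 0 genes lengthened, the 4 h length of JUNB being that of the separate peak, against 16.5% and 4.96% of regions. In parent cells JUNB lengthened and 0 genes shortened, against 3.40% and 6.24%. Under DMSO 0 of 6 genes were 1.5 times longer or shorter in knockout than in parent cells, against 26.4% and 3.93% of regions. At 2 h, 6 of 8 were shorter in knockout cells and 0 longer, against 22.2% and 1.88%. At 4 h the knockout length was below the parent length for all 8 genes, by 1.5 times or more for 6 of them, against 36.2% of shared regions shorter and 2.93% longer. FOS had 495 covered bases in knockout cells at 4 h and 1237 in parent cells, and ATF3 had 659 and 1611. By the recorded samples this comparison belongs to 2 h, and of the genes called in both parent lists 0 of 7 were longer and 6 shorter at 4 h than under DMSO, and 1 of 8 longer at 2 h. Covered length depends on where the caller's threshold falls, so it grows with the reads and is no separate measure.

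**Figure D4:**
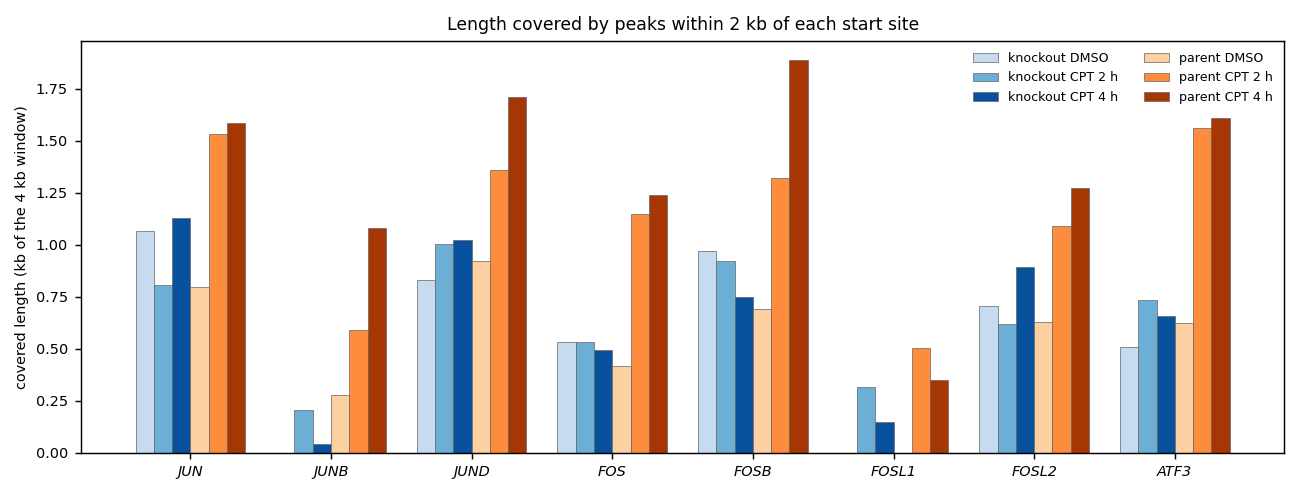
Length covered by peaks within 2 kb of each start site, in kb, for each gene and library (bars start at 0; an absent bar means no peak). The longest bars are those of parent cells under camptothecin, reaching 1886 bases at FOSB, and those of knockout cells change less between treatments.

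The authors' fold enrichment divides a summit by its local background and describes a peak within its own list. The gene with the highest fold enrichment was FOS (8.51) in knockout DMSO, JUND (7.94) in knockout cells at 2 h and JUN (8.73) in knockout cells at 4 h. In parent cells it was FOSL2 under DMSO (7.77) and at 2 h (8.06), and FOS at 4 h (8.14). The local background, recovered in reads, also differed between libraries. At JUN it was 23.4 reads in parent cells at 4 h, against 4.67 reads under DMSO, and at FOS it was 11.4 against 2.24 reads. At JUND it was 33.6 reads in parent cells at 4 h, the highest among the genes, against 6.31 reads under DMSO. In knockout cells at 4 h it was 5.65 reads at JUN and 3.31 reads at FOS. In parent cells the fold enrichment at 4 h was 6.96 at JUN, against 5.30 under DMSO. It was 4.72 against 3.20 at JUNB, 8.14 against 4.95 at FOS, 5.05 against 4.62 at FOSB and 5.98 against 4.54 at ATF3. At JUND (5.02 against 5.61) and FOSL2 (6.28 against 7.77) it was lower at 4 h, although JUND is counted as risen by its scaled reads. The change in fold enrichment over the shared regions was not computed, so these pairs have no background beside them. In the recorded samples the parent list called 4 h is 2 h and the one called DMSO is 4 h. The lowest background of a whole list lay between 1.22 and 1.37 reads in all 6.

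Beyond the windows, 48 union regions lay from 2 to 50 kb from the start sites. Knockout lists held 32, 35 and 28 of them under DMSO, 2 h and 4 h, and parent lists held 18, 44 and 44. In the same order, knockout lists held 58.9%, 63.8% and 58.3% of all union regions, and parent lists 43.3%, 72.9% and 66.8%. Only 15 of the 48 were called in all 6 libraries. Among these, 4 rose in parent cells at 4 h and 1 fell, against 12.3% and 25.3% of shared regions. At 2 h, 2 rose and 1 fell, against 7.84% and 16.1%. With the recorded samples, 1 rose and 2 fell at 4 h, and 0 rose and 1 fell at 2 h. In knockout cells 0 of the 15 rose or fell at either time, by either placement. FOS had 3 such neighbours, all called in every library. The highest by fold enrichment, at 75760750 to 75761250, 15.5 kb downstream, had 31, 40 and 36 reads in knockout cells given DMSO, 2 h and 4 h, and 23, 70 and 91 reads in parent cells. Its scaled log2 ratio in parent cells was 0.36 at 2 h and 0.47 at 4 h, against 0.99 and 1.22 at the FOS start site. The region 19.6 kb upstream of FOS was at 0.08 and -0.08, and the one 29.0 kb upstream at 0.58 and -0.36. JUNB had 11 neighbours, of which parent DMSO held 0 and the parent camptothecin lists 10 each, while the knockout lists held 4, 5 and 3. The recorded samples make the list with 0 parent 4 h, and the lists with 10 parent DMSO and 2 h. Of the 18 neighbours called in both parent DMSO and parent 4 h, 4 rose and 4 fell at 4 h. The recorded samples gave 3 rises and 2 falls. No share over regions called in these 2 lists was computed. The falls by the codes at JUND (18402342 to 18403089, log2 -0.80) and at FOSL2 (28589363 to 28590031, -1.02, and 28632965 to 28633549, -1.25) were not called in all 6. The other region that fell lay at 212808933 to 212810524, 27.7 kb downstream of the ATF3 start site. Its scaled log2 ratio in parent cells was -0.73 at 2 h and -0.95 at 4 h, and in knockout cells 0.44 and 0.36. Under the recorded samples each 4 h ratio is the 2 h ratio by the codes with the sign reversed. All 4 of these regions were then above 0 at 4 h in parent cells.

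Of the other genes, the highest neighbour by fold enrichment was found, by the codes, in a parent camptothecin library each time. For JUN it lay at 59220237 to 59221396 on chromosome 1, 29.0 kb beyond the start site in the transcribed direction (8.66-fold, 2 h). For JUNB it lay 37.2 kb downstream, at 12939312 to 12939690 on chromosome 19 (9.21-fold, 4 h). For JUND it lay at 18439207 to 18439538 on the same chromosome, 46.9 kb upstream (14.9-fold, 4 h). FOSB had its highest neighbour 17.6 kb downstream, at 45988434 to 45989257 (12.0-fold, 4 h), and FOSL2 17.5 kb downstream, at 28632965 to 28633549 (7.95-fold, 2 h). That of ATF3 lay upstream, at -49.6 kb, at 212732082 to 212732691 (12.2-fold, 2 h). That of FOSL1 lay at 65640847 to 65641500 on chromosome 11, with its centre at -26.8 kb in genome coordinates (12.7-fold, 4 h). The FOSB, FOSL1 and ATF3 neighbours were called in 6 of 6 libraries, those of JUN in 5, of JUND and FOSL2 in 4 and of JUNB in 3. The recorded samples make the list called 2 h parent DMSO, which then holds the highest values of JUN, FOSL2 and ATF3. How often other regions had their highest fold enrichment in the same lists was not counted. Which of these neighbours act on the AP-1 genes was not tested.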

How the data were processed

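Accessibility was measured by ATAC-seq in 6 libraries, 1 per genotype and treatment. Trimming is listed as Trim Galore 0.6.2 and Trimmomatic 0.39 in the submitters' processing notes, which also name hg19, BWA 0.7.17, SAMtools 1.8 and Picard 2.9.2, and MACS2 2.1.2. No source read here says how reads were shifted, extended or deduplicated, and each of these moves summits, widths and reads. The authors deposited 1 peak list per library. Its score is 10 times the -log10 q. The deposited fold is a ratio over local background, and the deposited -log10 p and -log10 q come with it, none with a q below 2 on that scale. Summit reads and background were solved from fold and p under a Poisson model (Python 3.11.15, SciPy 1.17.1). Chromosomes 1 to 22 and X were used, at least 99.95% of solutions lay within 0.02 of an integer, and they were rounded. The solver was tested on simulated data. Lists were merged where they shared 1 base. A gene's value is its highest summit among entries within 2 kb. All 8 genes are named, with the neighbour of highest fold enrichment within 50 kb of each. Alternatives were other windows (0.5, 1 and 5 kb), a q filter, another scaling, summed summits, 2-fold, equal list lengths, covered length and the recorded samples. Members and lists were chosen with earlier results of these data known.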

Additional observations from a re-analysis of the deposited data

Results flagged for a closer look

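FOS had treatment ratios of opposite sign in the genotypes, although the knockout ratios did not pass 1.5-fold. The scaled log2 ratio at 2 h was -0.28 in knockout cells and 0.99 in parent cells, a difference of -1.27, and at 4 h it was -0.16 and 1.22, a difference of -1.38. JUND also had ratios of opposite sign at 4 h, with -0.20 in knockout cells and 0.60 in parent cells, a difference of -0.80. These were singled out because the signs are opposite and the difference passes 1.5-fold. With 1 library per group the differences were not tested, and the knockout ratios of both genes have intervals that include 0. Differences of at least this threshold in the same direction were found in 12.7% of shared regions at 2 h and 18.8% at 4 h. By the recorded samples the differences were -0.16 at 2 h and 1.27 at 4 h for FOS, and 0.15 at 4 h for JUND.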

How the results depend on the processing

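Counts of genes past 1.5-fold, and the values of genes that turn, were recomputed under the alternatives; the cause of a change was not tested unless the setting itself is the cause. By the recorded samples, which relabel the times, 0 genes rose in knockout cells at 2 h (ATF3 at -0.36) and 1 fell at 4 h (ATF3, -0.65). In parent cells 0 rose at 2 h, 0 rose and 4 fell at 4 h (JUN -0.69, JUNB -0.77, JUND -0.13, FOS -0.99 and ATF3 -0.99), and 5 fell between 4 h and 2 h. Between knockout and parent cells 0 rose and 2 fell under DMSO (JUNB and FOSL2), and 1 rose (FOS) and 0 fell at 4 h. FOS, higher under DMSO by the codes, was then at -0.44 there, and ATF3, lower at 4 h by the codes, at 0.15. Keeping peaks with a -log10 q of at least 5 left 3 rises in parent cells at 4 h and 1 lower gene in knockout cells at 2 h. Scaling by the lowest background, which leaves library-wide differences in place, gave 7 rises in parent cells at 2 h, 7 at 4 h and 4 between 4 h and 2 h. It gave 1 fall in knockout cells at 4 h against DMSO and 1 against 2 h. Knockout cells were then higher at 3 genes under DMSO and lower at 7 at 2 h and 8 at 4 h. Summing all summits in the window gave, in knockout cells, 2 falls at 2 h, 1 rise and 1 fall at 4 h, and 4 rises and 1 fall between 4 h and 2 h. In parent cells it gave 1 fall at 4 h, and 2 rises and 1 fall between the times, and in knockout against parent cells 8 falls at 2 h and 1 rise at 4 h. These sums were still scaled by the highest summits of the shared regions, which were not summed. They therefore also depend on the number of summits called in a peak, and have no matched background. At 2-fold, 0 genes rose at 2 h in either genotype, 0 were higher in knockout cells under DMSO, 1 was lower at 2 h and 0 at 4 h. By covered length, added after the data were seen, knockout cells had 0 rises at 2 h and 2 falls between 4 h and 2 h, and parent cells 1 rise between them. Knockout cells were then longer at 0 genes under DMSO and shorter at 6 at 2 h and 6 at 4 h. Windows of 1 kb and 0.5 kb left each count of rises and falls within 1.5 times, and lists cut to equal length, run only for the number of genes with a peak, did so for that number. With the 2 smaller windows FOSB (-0.91) took the place of JUNB, which had no value, among the 2 genes lower in knockout cells at 4 h. No paired analysis was possible because each group has 1 library. Counting error limits the low values: the 15 reads at FOS in parent DMSO have an interval of 8.40 to 24.7.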
